A study of Mus musculus with 6 samples.

Results

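The genes described here are 10 regulators of mineralization and of the bone and cartilage programmes: Spp1, Ibsp, Mgp and Chad, which encode matrix proteins, Alpl and Enpp1, which encode enzymes of pyrophosphate, the transcription factors Runx2, Sox9 and Msx2, and the decoy receptor gene Tnfrsf11b. Members were taken as all probe sets that the array annotation pairs with exactly 1 of these symbols. That gave 12 probe sets of 7 genes, of 45037 probe sets tested and 18193 genes named by a probe set of 1 gene. Spp1, Runx2 and Enpp1 have no probe set named for them in the annotation used, and they were not analysed here.

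The arrays compared left carotid arteries of NTG mice, the non-transgenic controls, with those of SMC-IRF9-TG animals, in which the mouse IRF9 cDNA is placed under the SM22α promoter, a promoter active in smooth muscle cells. The labels name the strain C57BL/6, and the study's methods place the transgenic line on C57BL/6J. For all experiments the methods give male mice aged 10 to 12 weeks. All arteries had been injured with a wire and were collected 14 days later. Each group had 3 arrays, and each array held a pool of 3 to 5 vessels from which 400 ng of total RNA was labelled. Uninjured arteries were not among the arrays, so each value describes an injured vessel. Levels are the deposited log2 values, 1 unit being a doubling of signal, and a difference is the mean of the SMC-IRF9-TG pools minus that of the NTG pools.

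A vessel wall holds mineral formation in check. Alkaline phosphatase, the Alpl product, hydrolyses pyrophosphate, an inhibitor of crystal growth that Enpp1 generates, and matrix Gla protein, the Mgp product, keeps arteries from calcifying. Smooth muscle cells of diseased arteries can take on features of bone or cartilage cells, with Runx2 and Sox9 as the leading transcription factors of these programmes, and osteoprotegerin, the Tnfrsf11b product, is a soluble decoy receptor that captures RANK ligand and so limits osteoclast formation.

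Some properties of the arrays bear on the values below. Irf9 itself, measured by probe set 1421322_a_at, differed by 0.30 (95% interval -0.22 to 0.83, limma adjusted p = 0.436), so this probe set does not separate the groups. Correlations between arrays were 0.927 to 0.955 within NTG and 0.98 to 0.985 within SMC-IRF9-TG. NTG pool 2 had the widest gap between the 3′ and 5′ control probe sets of Actb, at 7.09 against 1.56 to 3.04 in the other arrays. Xist, an RNA made in female cells, was high in NTG pools 1 and 2 (9.94 and 9.50) and between 2.94 and 4.08 elsewhere. High Xist was thus confined to control pools, so what goes with it is partly confounded with group. Whether these pools hold female vessels, against the methods, was not tested. The added poly-A controls were lowest in SMC-IRF9-TG pools 1 and 2, at means of 5.03 and 4.55 against 7.54 to 11.7. SMC-IRF9-TG pool 2 stood apart for some of the genes described here, and it held the highest value in 9 of the 12 member probe sets. Its lead over the next pool was 5.47 in Ibsp 1417484_at and 3.28 in Chad. In Mgp and in Tnfrsf11b 1449033_at and 1418309_at that lead was only 0.05, 0.11 and 0.04. Counted by genes and their brightest probe set, not by probe sets, it was the highest pool for 15.9% of all 18193. Where leaving it out ends the call of a member or of a gene of the related lists, both values are given.

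Of the 12 member probe sets, 2 were higher in SMC-IRF9-TG arteries and 0 were lower at a limma adjusted p under 0.05 (4 and 0 at an unadjusted p under 0.05). Over all 45037 probe sets tested, 2.37% were higher and 0.373% lower at the adjusted level. No limma share over all probe sets was taken at the unadjusted level. The shares given are therefore not a measure for the counts of 4 and 0. The pair that rose were 1 of the 2 probe sets of Tnfrsf11b and the single probe set of Mgp. In 4 of the 12 the lowest transgenic pool exceeded the highest control pool, namely these and the brighter 2 of the 3 Sox9 probe sets, and 12.1% of all probe sets showed that separation. With 3 pools against 3, the exact permutation test cannot give a 2-sided p below 0.1.

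**Figure D1:**
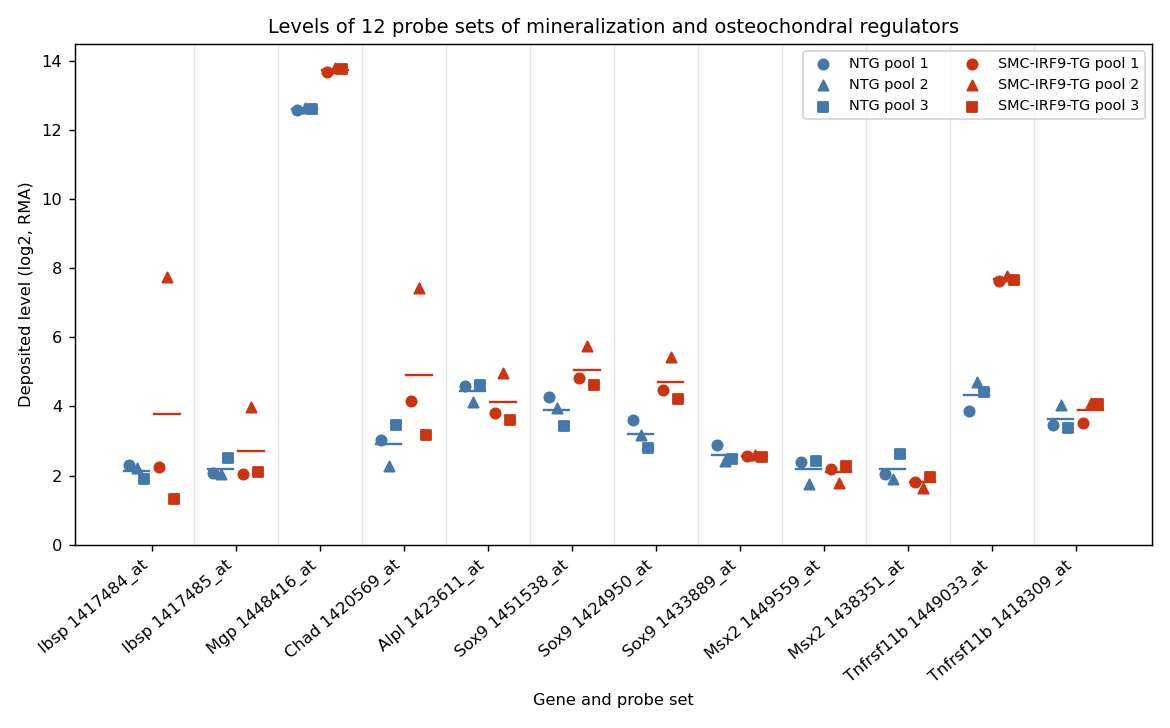
Deposited log2 level (vertical axis) of each member probe set (horizontal axis) in the 3 NTG pools (blue) and the 3 SMC-IRF9-TG pools (red). Point shapes mark pool numbers and short lines the group means. Levels of different probe sets are not comparable with each other. Tnfrsf11b 1449033_at and Mgp separate the groups with little spread, whereas Ibsp and Chad have a single high point, SMC-IRF9-TG pool 2 (triangle), at 7.76 and 7.44.

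Ibsp and Chad are shown first by sequence, because their values moved together in 1 pool and their promoters are in the RefSeq table (GRCm38.p6), which holds 4 of the 7 measured genes (Alpl, Ibsp, Chad and Msx2). The 250 bases before each start site are given 5′ to 3′ on the strand of the gene, which is plus for both, at chr5:104299037-104299286 for Ibsp and chr11:94564797-94565046 for Chad. Capitals mark the TATA box letters, TATAAA on either strand:
Ibsp: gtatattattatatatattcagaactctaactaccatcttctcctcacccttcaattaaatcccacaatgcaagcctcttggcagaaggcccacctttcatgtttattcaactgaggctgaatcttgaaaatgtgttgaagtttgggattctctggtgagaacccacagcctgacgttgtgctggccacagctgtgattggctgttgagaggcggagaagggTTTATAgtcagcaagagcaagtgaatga
Chad: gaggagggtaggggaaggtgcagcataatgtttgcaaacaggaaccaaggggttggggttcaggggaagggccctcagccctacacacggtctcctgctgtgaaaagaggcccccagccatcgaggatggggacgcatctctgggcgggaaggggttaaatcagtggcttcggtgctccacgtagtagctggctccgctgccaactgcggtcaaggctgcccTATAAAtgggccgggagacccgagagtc
In both windows the TATA letters begin 28 bases before the start, on the plus strand in Chad and as the reverse complement in Ibsp. TATAAA on either strand occurs in 12.4% of the 32851 promoter windows of this length. Neither window holds TGACTCA (the AP-1 letters, present in 4.46% of all windows), GAAANNGAAA (the interferon response letters, 2.98%), TGTGGT (the Runx letters, 14% of windows) or AACAAT (the Sox letters, 9.42%), each searched on both strands. The windows of Alpl and Msx2 held none of these 4 either. A match is a description of letters, and its absence says nothing on whether a factor binds.

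Among the matrix and mineral-binding proteins, Mgp rose and Ibsp and Chad did not pass the test. Matrix Gla protein is a small vitamin K-dependent protein made by smooth muscle cells and chondrocytes. Mgp (1448416_at) read 12.59, 12.64 and 12.61 in NTG pools 1, 2 and 3, against 13.67, 13.82 and 13.77 with the transgene. The groups did not overlap, and the gap between them was many times the spread within either. The means were 12.61 ± 0.03 and 13.75 ± 0.07 (SD, n = 3 each), a difference of 1.14 ± 0.18 (SE; limma adjusted p = 0.0152; exact permutation p = 0.1), or 2.2-fold. Mgp gave the highest value of all probe sets on each SMC-IRF9-TG array and ranked no lower than 6 on any array, and saturation of the scanner at such levels was not checked, so the size could be compressed. Its difference stayed between 0.78 and 1.23 under the alternatives tried, but the adjusted p was 0.0756, 0.0874 and 0.0832 without SMC-IRF9-TG pool 1, 2 or 3, and 0.0712 after quantile normalization.

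Ibsp encodes bone sialoprotein, an acidic glycoprotein of mineralizing bone that binds hydroxyapatite and integrins. Its probe set 1417484_at read 2.30, 2.22 and 1.91 in NTG arteries, against 2.23, 7.76 and 1.32 with the transgene. SMC-IRF9-TG pool 2 was thus high alone, and the other transgenic pools lay within or under the range of the controls. The excess of that pool over the next highest array, 5.47, was the largest of all 45037 probe sets. The group difference was 1.63 ± 1.39 (SE; adjusted p = 0.487), and without SMC-IRF9-TG pool 2 it was -0.36 (adjusted p = 0.619). The dimmer probe set, 1417485_at, repeated the pattern at a smaller scale, with 2.06, 2.04 and 2.51 in NTG and 2.04, 3.98 and 2.11 in SMC-IRF9-TG arteries. Its difference was 0.51 ± 0.48 (SE; adjusted p = 0.528), and -0.13 without SMC-IRF9-TG pool 2. The NTG means of both probe sets lay under the lower quartile of their arrays (2.33 to 2.66 over the 6 arrays), where a level may not differ from background.

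Chad encodes chondroadherin, a leucine-rich protein of cartilage matrix through which chondrocytes attach. Chad (1420569_at) read 3.02, 2.28 and 3.45 in NTG arteries, against 4.16, 7.44 and 3.16 with the transgene. Again SMC-IRF9-TG pool 2 was far above the rest, pool 1 was slightly above all controls and pool 3 fell among them. The excess of pool 2 over the next array was 3.28, the second largest of all probe sets after Ibsp. The difference between groups was 2.0 ± 0.93 (SE; adjusted p = 0.243) and 0.74 without that pool (adjusted p = 0.473).

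Of the enzymes of pyrophosphate, Alpl alone was measured. Alkaline phosphatase (Alpl, 1423611_at) read 4.58, 4.14 and 4.61 in NTG and 3.81, 4.96 and 3.60 in SMC-IRF9-TG arteries. The groups overlapped because SMC-IRF9-TG pool 2 had the highest level of all and the other transgenic pools the lowest. The difference was -0.33 (95% interval -1.13 to 0.48, adjusted p = 0.583), and -0.75 without SMC-IRF9-TG pool 2 (adjusted p = 0.289), -0.17 without pool 1 and -0.07 without pool 3.

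Among the transcription factors, Sox9, the master regulator of chondrocyte differentiation, was measured by 3 probe sets. The brightest, 1451538_at, read 4.28, 3.96 and 3.44 in NTG and 4.83, 5.75 and 4.63 in SMC-IRF9-TG arteries. The next, 1424950_at, read 3.62, 3.18 and 2.80 against 4.49, 5.44 and 4.21. In both, every transgenic pool was above every control and SMC-IRF9-TG pool 2 was the highest. The differences were 1.18 ± 0.34 (adjusted p = 0.107) and 1.51 ± 0.35 (SE; adjusted p = 0.0626), so neither passed the test, with an exact permutation p of 0.1 for each. Without SMC-IRF9-TG pool 2 they were 0.84 (adjusted p = 0.305) and 1.15 (adjusted p = 0.182). When probe sets under the median level were left out before the adjustment, 1424950_at had an adjusted p of 0.0399. The third, 1433889_at, was near the lower quartile of the arrays and read 2.88, 2.41 and 2.47 against 2.56, 2.60 and 2.55, a difference of -0.02 (95% interval -0.48 to 0.44).

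Msx2, a homeobox gene of skull bone that BMP signals induce, was dim in both groups by its 2 probe sets, with means under the lower quartile of the arrays. Probe set 1449559_at read 2.38, 1.75 and 2.42 in NTG and 2.20, 1.79 and 2.28 in SMC-IRF9-TG arteries, and 1438351_at read 2.04, 1.90 and 2.64 against 1.81, 1.65 and 1.96. The groups overlapped in both. The differences were -0.09 (95% interval -0.66 to 0.48, adjusted p = 0.839) and -0.39 (95% interval -0.93 to 0.16, adjusted p = 0.353).

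Tnfrsf11b, the gene of osteoprotegerin, had the largest difference of the members. Its probe set 1449033_at read 3.88, 4.71 and 4.41 in NTG pools 1, 2 and 3, against 7.64, 7.77 and 7.65 with the transgene. All transgenic pools were alike and far above all controls. The means were 4.33 ± 0.42 and 7.69 ± 0.07 (SD, n = 3 each), a difference of 3.36 ± 0.24 (SE; limma adjusted p = 6.7e-04; exact permutation p = 0.1), or 10.2-fold. It was 3.32 without SMC-IRF9-TG pool 2 (adjusted p = 0.00731) and 3.54 without NTG pool 2 (adjusted p = 0.00169). The other probe set, 1418309_at, is listed for the same transcript record and did not show this: it read 3.47, 4.06 and 3.38 in NTG and 3.52, 4.10 and 4.06 in SMC-IRF9-TG arteries, a difference of 0.26 ± 0.26 (SE; adjusted p = 0.557). The disagreement between the 2 probe sets is unresolved in these data, and their mean gave 1.81 ± 0.22 (SE; adjusted p = 0.00488).

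**Figure D2:**
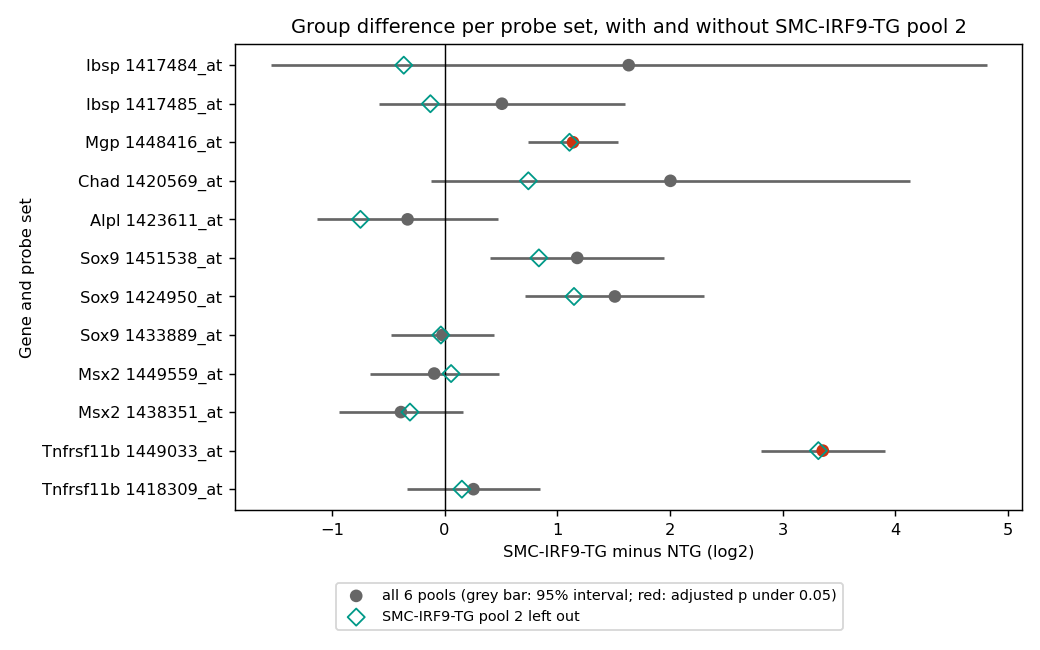
Difference between SMC-IRF9-TG and NTG pools (log2, horizontal axis) for each member probe set. Filled points use all 6 pools, with bars for limma's 95% interval and red for an adjusted p under 0.05. Open diamonds leave out SMC-IRF9-TG pool 2. Mgp and Tnfrsf11b 1449033_at barely move without that pool, and both Ibsp differences cross 0, to -0.36 and -0.13.

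Cartilage genes were examined because Sox9 and Chad belong to that programme. Of 31 measured genes of the list of chondrocyte regulators and cartilage matrix, 1 was higher and 0 lower, where 3.11% of all 18193 genes were higher and 0.511% lower by their brightest probe set. At an unadjusted limma p under 0.05 they were 12 and 2. No share over all genes was taken at that level, so the shares above are not a measure for these counts. The median difference of the list was 0.70, against -0.05 over all genes, and its median level was 3.35 to 3.59 in the controls and 4.55, 5.94 and 3.90 in transgenic pools 1, 2 and 3. The gene that passed was Acan, encoding aggrecan, the large proteoglycan of cartilage, with 4.82, 3.98 and 5.76 in NTG and 8.49, 9.31 and 8.61 in SMC-IRF9-TG arteries, a difference of 3.95 ± 0.43 (SE; adjusted p = 0.00381). Acan was high in all transgenic pools, and its difference was 3.70 without SMC-IRF9-TG pool 2 (adjusted p = 0.0265).

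Some other cartilage genes were highest in SMC-IRF9-TG pool 2, as Chad was, and others were not. Cytl1 and Cilp, named after their values were seen, were lower with the transgene, at -0.75 (limma adjusted p = 0.185) and -0.65 (adjusted p = 0.101). In 20 of the 31 the highest level was in SMC-IRF9-TG pool 2, and in 13 that pool exceeded every other array by over 1 log2 unit, which 0.44% of all genes did. Col2a1 and Hapln1, named after their values were seen, stand 4th and 6th to 8th among the probe sets with the largest such excess, behind Ibsp, Chad and Scrg1. Col2a1, the main collagen chain of cartilage, read 3.94, 3.35 and 3.13 in NTG and 9.04, 11.71 and 5.35 in SMC-IRF9-TG arteries. Its difference was 5.23 ± 1.29 (SE; adjusted p = 0.0749) and 3.72 without pool 2 (adjusted p = 0.167). Hapln1, the link protein of aggrecan, read 2.51, 2.19 and 2.23 against 4.50, 7.01 and 2.10. The link protein gene is dim in NTG, and its difference was 2.23 (adjusted p = 0.228) and 0.99 without pool 2 (adjusted p = 0.5). SMC-IRF9-TG pool 1 was above the controls for Col2a1 and Hapln1, and at their level for Ibsp. Pool 3 was also above the controls for Col2a1, which was not so for Chad.

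**Figure D3:**
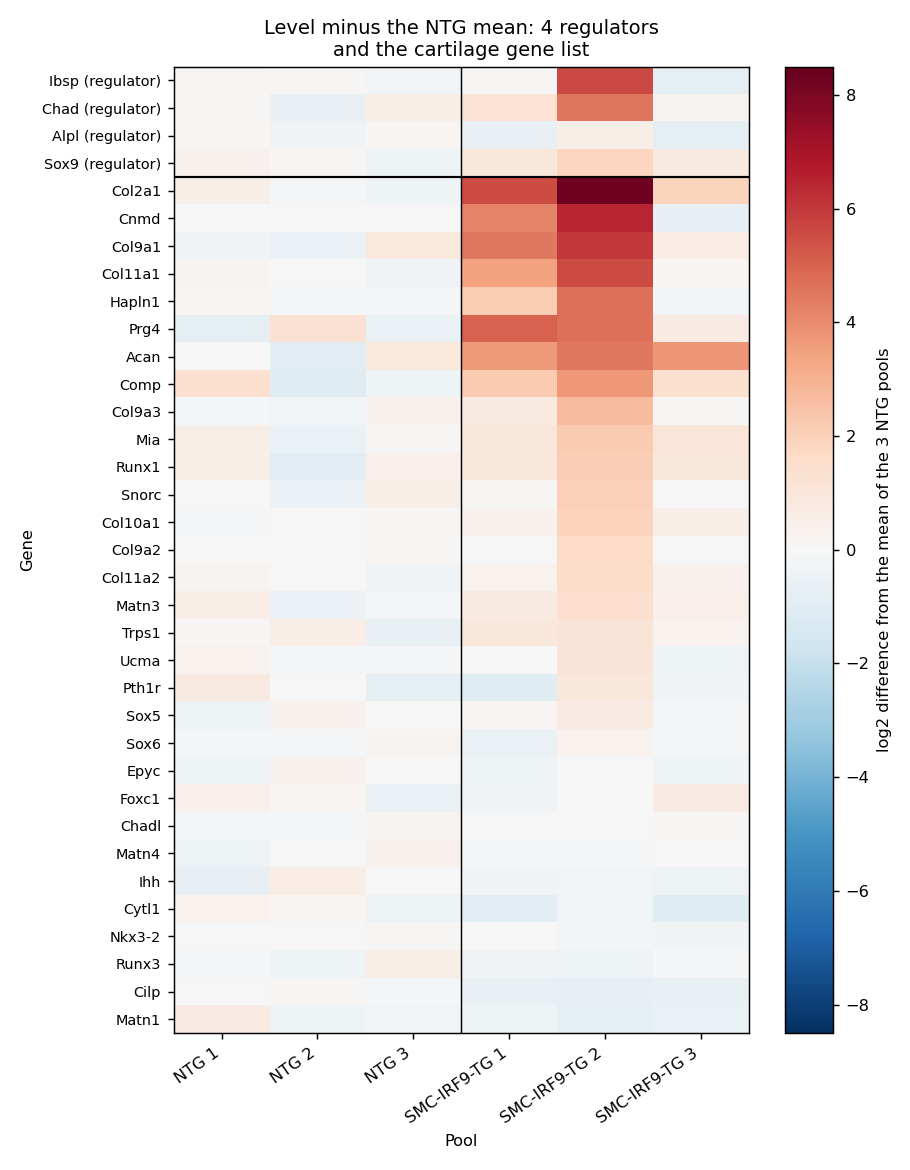
Level in each pool (columns) minus the mean of the 3 NTG pools (colour, log2) for Ibsp, Chad, Alpl and Sox9 (above the line, each by its brightest probe set) and for the 31 cartilage genes (below it), ordered by SMC-IRF9-TG pool 2. SMC-IRF9-TG pool 2 carries the strongest colour for Ibsp, Chad, Col2a1 and Hapln1, and Acan is raised in all 3 SMC-IRF9-TG pools.

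Markers of other cell types are given beside these values. Of 6 neutrophil markers, 4 had their highest level in SMC-IRF9-TG pool 2. Their summed signal (log2) was 6.23 to 6.51 in controls and 9.67, 10.73 and 6.34 in transgenic pools 1, 2 and 3. Of the 6, 0 passed the test. At an unadjusted limma p under 0.05, 4 were higher, with no share over all genes taken at that level. S100a8, a calcium-binding protein abundant in neutrophils, read 3.42, 4.07 and 2.56 against 8.83, 9.99 and 4.34. Mpo, an enzyme of neutrophil granules, read 2.90, 2.91 and 2.80 in NTG against 4.90, 4.26 and 3.14, with its highest level in pool 1. Elane, a further granule enzyme, did not rise, at 4.25 to 4.68 in NTG against 4.37, 4.36 and 3.72. Both are named after their values were seen. Of the 6 tendon and ligament genes 1 passed, Fmod, encoding the collagen-binding proteoglycan fibromodulin, with 5.93, 5.55 and 5.57 against 9.03, 10.05 and 8.78, whereas Scx, a transcription factor of tendon, read 3.14 to 3.60 in NTG and 3.80 to 4.31 in SMC-IRF9-TG pools. The summed signal of the tendon list was 6.32 to 6.51 in NTG and 8.88 to 10.10 in SMC-IRF9-TG pools, a rise carried by Fmod, since the list's median difference was -0.06 and the differences of Thbs4, Tnmd, Mkx and Kera, the last 3 named after their values were seen, were -0.12, -0.13, -0.01 and -0.37. The summed signal of 12 skeletal muscle genes was 7.14 to 7.40 in NTG and 6.79 to 6.99 in SMC-IRF9-TG pools. The part of cells of other tissues or of pool composition in the levels of Ibsp, Chad and the cartilage genes was not tested. In whole vessels, fewer cells of a type and less RNA per cell cannot be told apart.

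Macrophage markers were higher in 15 of 20 genes, with a median difference of 3.62 and summed signals of 8.83 to 9.95 in NTG and 12.61 to 13.11 in SMC-IRF9-TG pools. Lyz2 and Ctss, a lysozyme and a protease of macrophages, differed by 5.05 (adjusted p = 0.00186) and 4.58 (adjusted p = 0.00541). Fibroblast markers were higher in 3 of 8, led by Lum, encoding the proteoglycan lumican, at 5.30 (adjusted p = 1.1e-04), while Gsn, an actin-severing protein, differed by -0.42 (adjusted p = 0.289) and the list's median difference was 0.55. Contractile smooth muscle genes, the defining markers of the vessel, were higher in 0 of 12 and lower in 0, also at an unadjusted p under 0.05, with Acta2 at 13.28 to 13.60 in NTG and 13.48 to 13.63 in SMC-IRF9-TG pools. Mgp and Tnfrsf11b 1449033_at moved in the same direction as the 15 macrophage and 3 fibroblast markers that passed. The part of these cells in both differences was not tested. The other Tnfrsf11b probe set, 1418309_at, differed by only 0.26 (limma adjusted p = 0.557). Of the remaining lists, endothelial markers were higher in 1 of 8 (Tie1, an endothelial receptor, at 1.75, named after its value was seen), and 0 passed of 6 adipocyte, 4 thyroid, 6 lymphocyte, 3 erythrocyte and 5 nerve genes.

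The wider pathways were described by 6 lists, with 127 of their 132 genes measured. Of these 14 were higher and 1 lower, with a median difference of 0.20. Over all 18193 genes by their brightest probe set, 3.11% were higher and 0.511% lower, the shares to set beside each list count below. Without SMC-IRF9-TG pool 2, 8 of the 15 still passed.

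For phosphate, pyrophosphate and calcium handling, 1 of 18 genes was higher and 0 lower, with a median of 0.06. It was Ank, whose product lets pyrophosphate reach the outside of the cell, with 6.41, 6.33 and 6.48 in NTG and 7.76, 7.83 and 8.11 in SMC-IRF9-TG arteries, a difference of 1.49 ± 0.19 (SE; adjusted p = 0.00757). It stayed at 1.53 without SMC-IRF9-TG pool 2 (adjusted p = 0.0437). Ggcx, the enzyme that carboxylates matrix Gla protein and named here after its values were seen, read 4.45, 4.98 and 4.70 against 5.21, 6.54 and 5.39 and did not pass (adjusted p = 0.157).

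For osteoblast regulators and bone matrix, 5 of 24 genes were higher and 0 lower, with a median of 0.16. The largest rises were those of Phex, an endopeptidase of osteocytes, at 3.20 ± 0.29, Col1a1, a chain of type I collagen, at 2.48 ± 0.30, and Sparc, the collagen-binding protein osteonectin, at 2.19 ± 0.33 (SE; adjusted p = 0.00175, 0.00582 and 0.0148). Phex read 3.42, 2.85 and 3.55 in NTG and 6.00, 6.88 and 6.56 in SMC-IRF9-TG arteries, and its other probe set did not pass. Of the 2 other probe sets of Sparc, 1 passed. Col1a2, the partner chain of Col1a1, and Cbfb, the partner of Runx factors on DNA, also rose, by 1.59 and 1.66, and are named after their values were seen. Without SMC-IRF9-TG pool 2, Sparc and Cbfb no longer passed (adjusted p = 0.0805 and 0.0521), which left 3 of the 24 higher. Type I collagen and Sparc are made by many connective tissue cells and are not particular to bone. Sp7, the osteoblast transcription factor osterix, named after its values were seen, read 3.81 to 3.94 in NTG and 3.71 to 4.24 in SMC-IRF9-TG pools.

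Receptors of osteopontin and bone sialoprotein were higher in 1 of 11 genes and lower in 0, with a median of -0.22. Cd44, a hyaluronan receptor that also binds osteopontin, read 5.20, 6.82 and 6.22 in NTG and 8.66, 7.85 and 8.16 in SMC-IRF9-TG arteries, a difference of 2.14 ± 0.40 (SE; adjusted p = 0.0316). Of the 3 other probe sets of Cd44, 1 passed. Without SMC-IRF9-TG pool 2 its difference was 2.33 (adjusted p = 0.0896). Cd44 is also carried by macrophages and other leukocytes.

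Of 17 genes of the RANK ligand axis and of osteoclasts, 2 were higher and 1 lower, with a median of 0.15. Ctsk and Acp5, a protease and a phosphatase of osteoclasts and macrophages, differed by 3.55 ± 0.41 (adjusted p = 0.00482) and 1.94 ± 0.25 (SE; adjusted p = 0.00742). Tnfsf10, encoding TRAIL, a further ligand of osteoprotegerin, fell by 1.16 on the log2 scale (SE 0.23, adjusted p = 0.0408), from 5.27, 5.78 and 5.23 to 4.56, 4.09 and 4.15, and its 2 other probe sets did not pass. Without SMC-IRF9-TG pool 2 the difference of Tnfsf10 was -1.07 (adjusted p = 0.182). The ligand that osteoprotegerin captures and the receptor of that ligand, both named after their values were seen, did not follow Tnfrsf11b 1449033_at. Tnfsf11, RANK ligand, had means under the lower quartile in both groups, with values of 2.23 to 2.78 and 1.85 to 2.35. Tnfrsf11a, encoding RANK, the receptor of that ligand, read 4.23 to 5.10 in NTG and 3.89 to 4.41 in SMC-IRF9-TG pools (limma adjusted p = 0.363).

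For BMP ligands, receptors, mediators and antagonists, 4 of 26 genes were higher and 0 lower, with a median of 0.25. Gdf10, a ligand of the family also called BMP3b, read 5.23, 5.11 and 5.23 in NTG and 9.41, 9.61 and 10.22 in SMC-IRF9-TG arteries, a difference of 4.56 ± 0.24 (SE; adjusted p = 2.6e-04). It was 4.63 without SMC-IRF9-TG pool 2 (adjusted p = 0.00303). Fst, an antagonist that binds activins and some BMPs, rose by 2.23 ± 0.35 and Bmper, an extracellular modulator of BMPs, by 2.09 ± 0.38 (SE; adjusted p = 0.0153 and 0.0301), and Id1, a target of BMP signals named after its values were seen, differed by 1.49 (adjusted p = 0.00992). Bmper read 1.52, 2.57 and 2.57 in NTG, where its mean lay under the lower quartile, against 4.55, 4.78 and 3.61, so the size of its rise is uncertain. Without SMC-IRF9-TG pool 2, Fst, Bmper and Id1 had adjusted p of 0.0534, 0.135 and 0.0573.

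**Figure D4:**
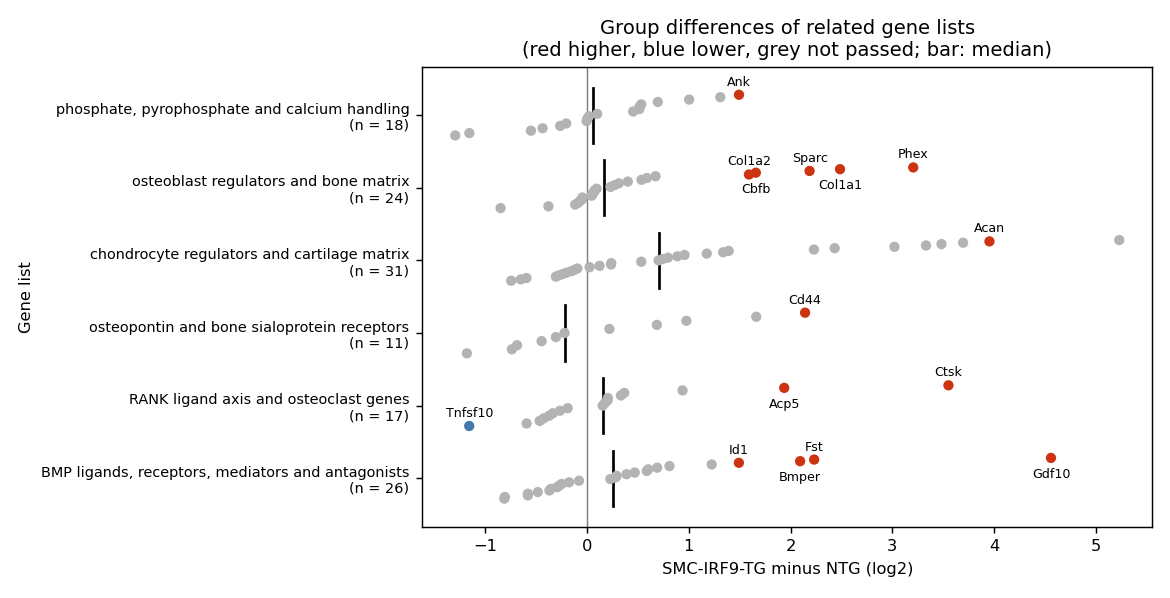
Difference between SMC-IRF9-TG and NTG pools (log2, horizontal axis) of each gene of the 6 related lists by its brightest probe set. Red points were higher and the blue point lower at an adjusted p under 0.05, grey points did not pass, and black bars are list medians. The 14 genes that rose are spread over all 6 lists, the largest rise being that of Gdf10, at 4.56, while Col2a1 at 5.23 did not pass.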

How the data were processed

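Injured vessels of both genotypes were measured on 6 Affymetrix arrays, 3 pools per group, and all arrays were used. The authors deposited log2 probe-set levels made with RMA in Affymetrix Expression Console, per the submitters' processing notes (versions not given in the sources used here). This method subtracts background, applies quantile normalization and combines the probes of a set. Array medians still ranged from 3.42 to 3.66. Detection and saturation cannot be read from these values. The number of arrays limits precision.

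Of 45101 probe sets, 64 controls were left out. Groups, taken from the sample titles, were compared with limma 3.58.1 (R 4.3.3), 2-sided, with Benjamini-Hochberg adjustment over 45037 probe sets and a threshold of 0.05. The study's methods name a t-test for 2 groups, which was run as an alternative. The labels do not say which animals or transgenic line a pool holds, so the p-values rest on the spread between pools, part of which may be technical. Genes with several probe sets enter lists by the brightest one. A probe set was called dim where a group mean lay under the mean lower quartile of that group's arrays. On simulated data limma called 4 of 67, 47 of 67 and 63 of 66 probe sets given changes of 1, 2 and 4 on the log2 scale, and 6 of 44837 unchanged ones. The simulated noise was independent between probe sets and equally wide in both groups. It held none of the array differences described above, so these counts do not give the error rate of the real comparison.

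All members are given. In each related list up to 3 passing genes with the largest rise and up to 3 with the largest fall are named, in marker lists up to 3 of the highest level, and other names are marked as chosen after their values were seen. The members and the 18 lists were chosen with earlier results of these data known. Tables and figures were made with Python 3.11.15 (pandas 2.3.3, numpy 2.4.6, matplotlib 3.10.9). Alternatives were other scalings, filters, variance models, thresholds, blocks for pool number, Xist and poly-A controls, and pools left out, and leaving out SMC-IRF9-TG pools 1 and 2 together was added after seeing the data.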

Additional observations from a re-analysis of the deposited data

How the results depend on the processing

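With all pools and the settings of the report, 1237 probe sets passed, with 2 member probe sets higher and 0 lower, and 14 genes of the related lists higher and 1 lower. No alternative gave a lower member. All probe sets passing numbered 700 after quantile normalization, 1 under the methods' t-test with Benjamini-Hochberg adjustment (3558 higher and 4806 lower at its unadjusted p under 0.05, members 4 and 0), 192 with a block for high Xist, 55 with a block for low poly-A controls, 577 genes when all probe sets of a gene were averaged, 24 with SMC-IRF9-TG pools 1 and 2 both left out (an alternative chosen after seeing the data, in which the lone transgenic pool is assumed to vary like the controls), and 291 and 2864 at adjusted p under 0.01 and 0.1. Member probe sets higher numbered 1 after quantile normalization, with either of these blocks and at an adjusted p under 0.01, the one left being Tnfrsf11b 1449033_at, and 0 under the t-test and without both pools. Related genes higher numbered 5 with the Xist block, 2 with the poly-A block, 1 without both pools and 0 under the t-test. The lower gene, Tnfsf10, was lost (0 lower) under centring, the trended prior, the t-test, both blocks, gene means, the added alternative and an adjusted p under 0.01, and when NTG pool 1 or 2 or any transgenic pool was left out. Leaving out 1 pool at a time gave 320 (without SMC-IRF9-TG pool 2) to 1851 (without NTG pool 3) probe sets, with 401 and 453 without SMC-IRF9-TG pools 1 and 3 and 581 without NTG pool 1. It gave 1 to 2 members higher, 8 to 16 related genes higher and 0 to 3 lower, with 1 member whichever transgenic pool was left out, 8 related genes without pool 2 and 3 lower genes without NTG pool 3. Where a cause is not in the construction of the alternative, such as fewer arrays, the cause was not tested.

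The values gave no sign that the pool numbers in the labels pair the samples. Deviations of same-numbered pools from their group means correlated at -0.15, -0.001 and 0.027, and those of pools with unlike numbers at -0.125 to 0.127. With so few pools this cannot show that the samples are unpaired. With the pool number as a block, 730 probe sets passed and 1 member was higher, the adjusted p of Mgp being 0.0536 and that of Tnfrsf11b 1449033_at 0.00275.

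Both Ibsp differences turned negative with the poly-A block (-0.82 and -0.088), with SMC-IRF9-TG pools 1 and 2 both left out (-0.82 and -0.088) and without SMC-IRF9-TG pool 2 (-0.36 and -0.13), and reached 2.86 (1417484_at, without pool 3) and 0.84 (1417485_at, without pool 1). The low poly-A pools are SMC-IRF9-TG pools 1 and 2. The poly-A block and leaving both out therefore compare pool 3 alone with NTG, and their differences are equal by construction. With the Xist block, differences likewise rest on NTG pool 3 alone as the control. Sox9 1433889_at turned positive after centring (0.076), quantile normalization (0.23), with the Xist block (0.10) and without NTG pool 1 (-0.11 to 0.13 over the pools left out). Msx2 1449559_at turned positive after centring (0.0028), quantile normalization (0.15), with the poly-A block (0.10), with both pools left out (0.10) and without NTG pool 1, NTG pool 3 or SMC-IRF9-TG pool 2 (-0.31 to 0.058 over the pools left out). Tnfrsf11b 1449033_at lost its call under the t-test (adjusted p = 0.0849) and without both pools (0.0923), with a difference from 3.13 to 3.54 in every alternative run on the probe set.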
